A study of Mus musculus with 6 samples.

Results

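The genes described here are 39 genes of DNA replication and S phase, the cell cycle phase in which the genome is copied. They were taken by their mouse symbols from a table of 49315 Ensembl genes, and all 39 were found, had counts in every group and entered the test. RNA sequencing had been done on 6 libraries of wild-type mouse cells from tail-tip skin. Control fibroblasts carried lentiviral vectors labelled as negative and stand for day 0 (2 libraries), early cells carried CRISPR activation vectors of the SAM type and stand for day 7 (2 libraries), and late cells, taken at day 22, had these vectors too and came from isolated colonies (2 libraries). The late cells are labelled as induced cardiac progenitors, early replicate 1 as early reprogrammed and early replicate 2 as partially reprogrammed. CRISPR activation raises transcription of chosen genes by carrying activator proteins to their promoters with a Cas9 that cannot cut. Which genes were targeted is not stated in the labels read here. The protocol field names those vectors for all 6 samples, and the treatment field gives the fibroblasts the control vectors.

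Replication starts at origins that are licensed in G1, when the origin recognition complex, Cdc6 and Cdt1 load the ring of Mcm2 to Mcm7 onto DNA. In S phase the ring is activated by Cdc45 and the GINS complex, and polymerases held by the sliding clamp Pcna copy both strands. Many of these genes are transcribed when E2F factors are released from RB proteins, so their transcripts are low in resting or senescent cells and high in dividing ones.

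Total counts ranged from 20172874 to 40122999 per library. The labelled cell types were checked against 8 fibroblast markers, none of which was at 0 in any library. Their summed level was 12880 and 14209 CPM in fibroblasts, where CPM is the read count relative to the size of the library after TMM scaling, a correction for library composition. It was 5816 CPM in early replicate 1 and 14526 CPM in early replicate 2, and 5239 and 4778 CPM in the late libraries. Of the 8, 7 were lower in early replicate 1 than in early replicate 2. Over the 8, the median ratio of early replicate 1 to early replicate 2 was 0.154, with a range of 0.00437 to 1.23. At the low end, Dcn, a proteoglycan of connective tissue, was at 3.21 against 679 CPM, and Col3a1, a fibrillar collagen, at 17.0 against 3888 CPM. Summed over 6 cardiomyocyte markers, CPM was 43677 in late replicate 2 and between 13.3 and 111 in the other 5 libraries, and mitochondrial genes took 10.3% of the counts of late replicate 2, against 1.48% to 2.16% in the others. The same library stood apart in 5 endothelial markers, with a summed 551 CPM against 1.74 to 22.9 in the others, and in 4 fat cell and red cell markers, with 908 CPM against at most 2.44. Summed over 7 macrophage and leukocyte markers, CPM was 255 and 1052 in fibroblasts, 115 and 50.9 in early cells and 71.1 and 172 in late cells; 6 of the 7 were lower in both early libraries than in both fibroblast libraries. The other 1 was higher in both early libraries than in both fibroblast libraries. In late cells 1 of the 7 was higher in this way and 5 were lower. Itgam, an integrin of myeloid cells, was at 0 in both early libraries and Adgre1, a macrophage receptor, in early replicate 1. The part of these cell mixtures in the results below was not tested.

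As a group, the replication genes stood higher in both CRISPR activation groups than in fibroblasts, and the 2 early libraries stood far apart. Relative to the mean of the fibroblast libraries, the median member was 6.64-fold higher in early replicate 1, 1.87-fold in early replicate 2, 4.55-fold in late replicate 1 and 4.11-fold in late replicate 2. The same medians over all 16688 tested genes were 0.942, 0.990, 0.976 and 1.07. Above both fibroblast libraries were 38 members in early replicate 1 (42.8% of all tested genes), 35 in early replicate 2 (43.8%), and 38 in each late library (44.0% and 48.5%). More than 2-fold above fibroblasts were 37 of 39 members in early replicate 1 (20.0% of all tested genes), 19 in early replicate 2 (18.6%), 33 in late replicate 1 (21.1%) and 31 in late replicate 2 (25.8%). In bulk RNA, fewer dividing cells and less transcript per dividing cell cannot be told apart.

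**Figure D1:**
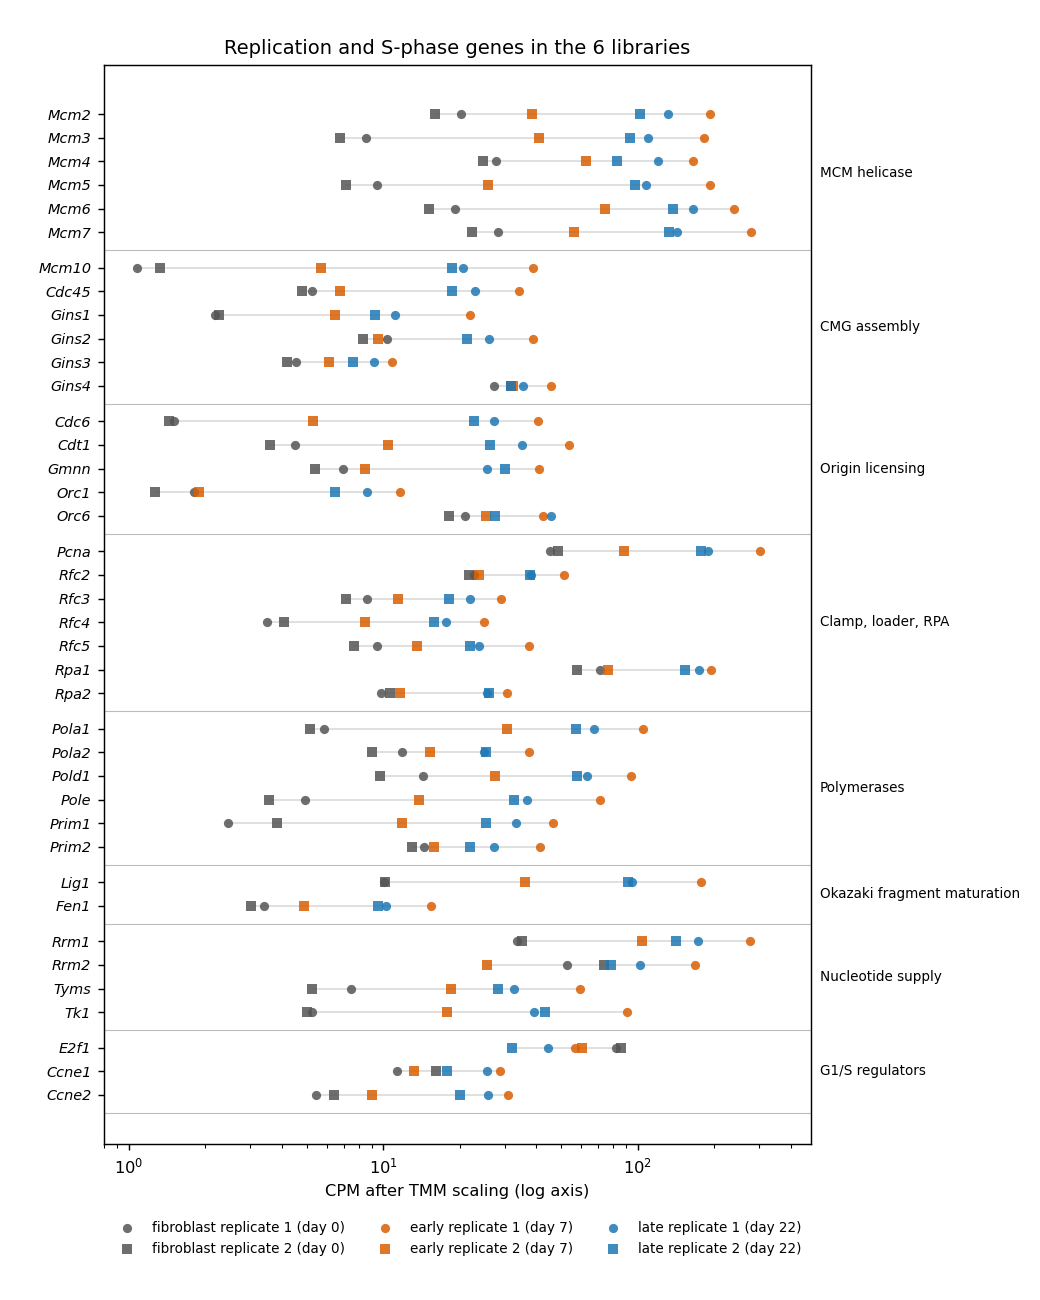
Levels of the 39 genes in CPM on a log axis, with grey, orange and blue points for fibroblast, early and late libraries and circles and squares for replicates 1 and 2. Early replicate 1 is the highest library for 37 of the 39 genes, both late libraries lie between the early ones for 36, and E2f1 alone has its highest values in fibroblasts.

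The comparison of early cells with fibroblasts asks how far the replication genes differed at day 7. Of 39 members 38 had a fitted value above fibroblasts and 1 below (50.2% of all tested genes were fitted higher), with a median log2 fold change of 2.12 against 0.0038 over all tested genes. For 35 members both early libraries lay above both fibroblast libraries, against 32.3% of all tested genes. The groups overlapped for Gins2, Rrm2 and Ccne1, and E2f1 lay lower in both early libraries (34.4% of all tested genes did). None passed edgeR's quasi-likelihood test after adjustment over all genes (0 of 39, against 1.53% of all tested genes in either direction and 0.695% higher), with adjusted p between 0.0580 and 0.660. At an unadjusted p under 0.05 there were 27 members, all of them higher, against 15.3% of all tested genes higher and 29.8% in either direction. The Wald test of DESeq2 called 25 members, all higher (12.6% of all tested genes). Without early replicate 2 edgeR called 23 members higher (2.19% of all tested genes), and without early replicate 1 it called 0 (0.0319%), with a median of 0.91; those fits keep 1 early library, whose spread is taken from the other groups. With total counts in place of TMM, Mcm3, Mcm6 and Pola1 passed (3 members, 1.58% of all tested genes higher), without a filter on low counts 10 members passed (3.5%), and with only these 2 groups in the fit 0 did (4.57%).

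The comparison of late cells with fibroblasts asks how the genes stood at day 22. Again 38 of 39 had a fitted value above fibroblasts (54.1% of all tested genes), with a median log2 fold change of 2.14 against 0.11 over all tested genes, and for these 38 both late libraries lay above both fibroblast libraries (35.7% of all tested genes). By edgeR 0 of 39 passed, against 1.42% of all tested genes in either direction and 0.641% higher, with adjusted p between 0.0598 and 0.683. At an unadjusted p under 0.05 there were 30, 29 higher and 1 lower (17.2% of all tested genes were higher at that threshold). DESeq2 called 25 higher and 1 lower (14.7% of all tested genes were called higher). With any 1 library left out, 38 members were still fitted higher and 1 lower. The edgeR count was 22, all higher, with only these 2 groups in the fit (3.26% of all tested genes higher). Without a filter it was 11, of which 10 were higher (3.95%). Both comparisons share the fibroblast libraries. While the summed cardiomyocyte markers were at 65.5 CPM in late replicate 1 and 43677 in late replicate 2, the members' median ratio of late replicate 1 to late replicate 2 was 1.19, with a range of 0.848 to 1.65.

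**Figure D2:**
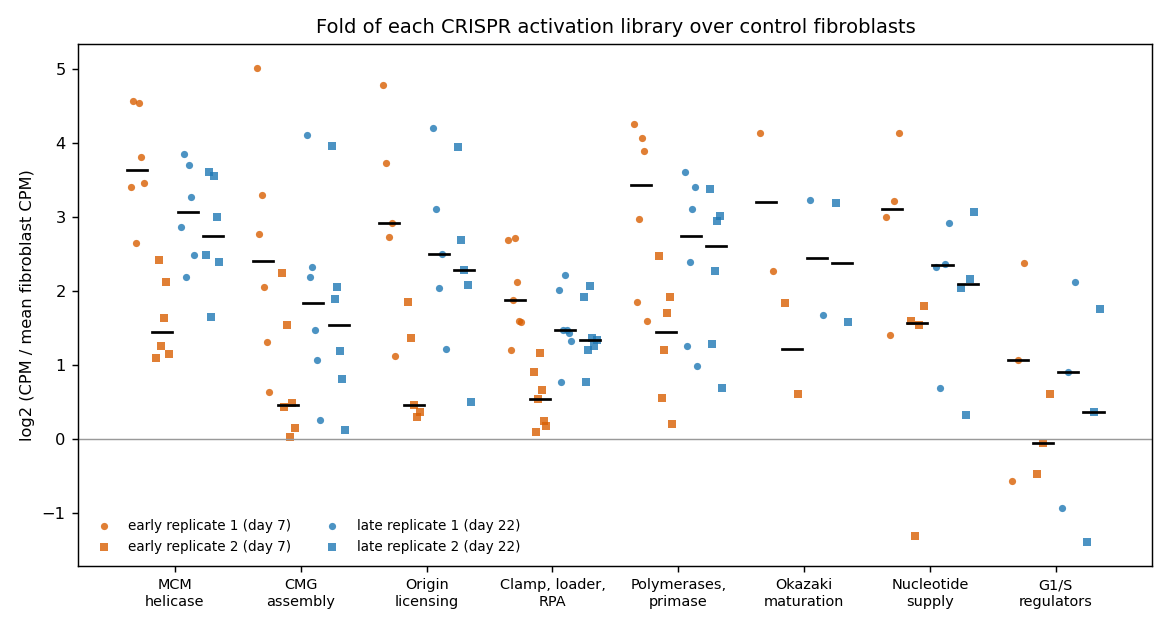
Log2 ratio of each CRISPR activation library to the mean of the fibroblast libraries, by role; every point is a gene and black bars are medians. For the MCM helicase the median folds are 12.5 and 2.74 in early replicates 1 and 2 and 8.47 and 6.82 in late replicates 1 and 2, and for the 3 G1/S regulators they are 2.10 and 0.965, and 1.86 and 1.29.

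Because many genes of S phase are known E2F targets, promoters were read for the words TTTGGCGC, TTTCCCGC, TTTCGCGC and TTTGCCGC, on both strands, in windows of 250 bases before to 50 bases after the start (RefSeq, GRCm38.p6). Of 39 members 30 had a window, and 12 of these 30 genes (40.0%) held at least 1 word: Cdc6, Cdt1, Gins3, Lig1, Mcm3, Mcm5, Mcm6, Mcm7, Orc1, Pola1, Pold1 and Rfc3. Of all 27025 genes with a window 704 did (2.60%). Members with a word had a median log2 fold change of 3.09 in early cells and 3.03 in late cells over fibroblasts, against 1.84 and 1.79 for the 18 members whose window held none; this is a description and was not tested. The box CCAAT, bound by NF-Y in many cell cycle promoters, was in 18 of the 30 (60.0%, against 41.1% of all genes), and TTTGAA, the letters of the cell cycle homology region of mitotic genes, in 4 (13.3%, against 20.2%). A match is a run of letters and not a measured binding site. The windows below show, for each role with a match, the member with the largest early fold change among those whose window held a word. They run 5′ to 3′ in the direction of the gene, with E2F words in capitals. Gins3 (early log2 fold change 0.96) and Rfc3 (1.36) are thus shown, though Mcm10 (4.21) and Rfc4 (2.14) of the same roles had larger values. The words GCGGGAAA, GCGCCAAA and GCGCGAAA are reverse complements of words in the search.
Mcm3 (chr1:20820263-20820562, minus strand): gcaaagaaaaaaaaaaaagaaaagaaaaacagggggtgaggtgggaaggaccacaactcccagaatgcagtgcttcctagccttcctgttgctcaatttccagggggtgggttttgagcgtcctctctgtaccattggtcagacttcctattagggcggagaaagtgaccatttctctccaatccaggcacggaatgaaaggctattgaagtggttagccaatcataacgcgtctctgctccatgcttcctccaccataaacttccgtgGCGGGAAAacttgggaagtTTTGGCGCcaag
Gins3 (chr8:95633309-95633608, plus strand): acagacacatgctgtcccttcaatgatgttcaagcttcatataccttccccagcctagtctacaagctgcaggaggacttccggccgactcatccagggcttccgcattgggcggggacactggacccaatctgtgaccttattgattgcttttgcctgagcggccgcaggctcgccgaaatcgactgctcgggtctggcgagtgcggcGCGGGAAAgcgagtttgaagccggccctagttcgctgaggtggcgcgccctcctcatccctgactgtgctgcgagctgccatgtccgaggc
Cdc6 (chr11:98907901-98908200, plus strand): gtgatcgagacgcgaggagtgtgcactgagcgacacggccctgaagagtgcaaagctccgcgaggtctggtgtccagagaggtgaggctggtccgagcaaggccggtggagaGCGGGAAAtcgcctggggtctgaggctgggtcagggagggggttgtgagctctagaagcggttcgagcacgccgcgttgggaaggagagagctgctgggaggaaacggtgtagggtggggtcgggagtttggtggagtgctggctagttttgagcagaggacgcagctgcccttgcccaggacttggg
Rfc3 (chr5:151651159-151651458, minus strand): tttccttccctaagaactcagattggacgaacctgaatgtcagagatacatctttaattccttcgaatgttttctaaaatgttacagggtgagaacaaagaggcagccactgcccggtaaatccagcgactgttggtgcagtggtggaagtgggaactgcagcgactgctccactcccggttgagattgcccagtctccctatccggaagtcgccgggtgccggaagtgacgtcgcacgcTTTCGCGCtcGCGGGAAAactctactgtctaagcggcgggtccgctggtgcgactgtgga
Pola1 (chrX:93632106-93632405, minus strand): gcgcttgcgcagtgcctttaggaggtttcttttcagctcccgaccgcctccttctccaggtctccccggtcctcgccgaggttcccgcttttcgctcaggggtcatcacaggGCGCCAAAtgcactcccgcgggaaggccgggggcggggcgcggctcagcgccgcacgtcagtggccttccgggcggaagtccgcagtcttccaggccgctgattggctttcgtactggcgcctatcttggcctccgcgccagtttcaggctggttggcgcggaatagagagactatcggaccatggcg
Lig1 (chr7:13278576-13278875, plus strand): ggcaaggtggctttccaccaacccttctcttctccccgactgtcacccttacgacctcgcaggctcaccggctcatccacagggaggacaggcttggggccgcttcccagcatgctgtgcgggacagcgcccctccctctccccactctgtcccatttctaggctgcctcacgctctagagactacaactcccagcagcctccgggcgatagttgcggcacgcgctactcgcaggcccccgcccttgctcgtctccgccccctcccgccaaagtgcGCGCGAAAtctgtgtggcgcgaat
The word of Cdc6 and that of Pola1 begin 138 bases before the start and that of Gins3 41 bases before it. Rfc3 holds 2 words within a few bases of each other at the start, Mcm3 holds 2 words 19 and 38 bases after it, and Lig1 holds 1 word 26 bases after it.

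The MCM helicase, the ring that unwinds DNA, had the highest median fold of the 8 roles in early replicate 1 and in both late libraries. Mcm3 (ENSMUSG00000041859, chr1:20802968-20820312 in GRCm38), whose promoter holds 2 E2F words, was at 8.53 and 6.77 CPM in fibroblasts, 181 and 40.8 in early replicates 1 and 2 and 110 and 92.8 in late replicates. Both CRISPR activation groups lay above fibroblasts without overlap, and the late libraries lay between the early ones. Its log2 fold change was 3.86 ± 0.75 (SE) in early cells (edgeR adjusted p = 0.0645) and 3.73 ± 0.75 in late cells (0.0646). Mcm6, with 19.1 and 15.1 CPM in fibroblasts, 239 and 74.5 in early and 166 and 137 in late cells, had log2 fold changes of 3.20 ± 0.60 in early cells (adjusted p = 0.0621) and 3.14 ± 0.60 in late cells (0.0617). The smallest change of the ring was that of Mcm4, at 27.8 and 24.7 CPM in fibroblasts, 165 and 62.8 in early and 120 and 82.6 in late cells (log2 fold change 2.12 ± 0.50 in early cells, adjusted p = 0.0775, and 1.94 ± 0.50 in late cells, adjusted p = 0.0818). Mcm5 was at 9.47 and 7.15 CPM in fibroblasts, 193 and 25.7 in early and 108 and 97.9 in late cells; it had the widest gap of the ring between the early libraries, 7.51-fold. Mcm2 was at 20.3 and 16 CPM in fibroblasts, 193 and 38.5 in early and 132 and 102 in late cells. Mcm7 was at 28.3 and 22.4 CPM in fibroblasts, 278 and 56.4 in early and 142 and 133 in late cells. For all 6 genes the order was early replicate 1, late libraries, early replicate 2, fibroblasts, which held for 33 of the 39 members and for 6.17% of all tested genes.

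Since the ring holds each subunit once, the balance of the 6 transcripts was followed as shares of their summed CPM, which was 114 and 92.1 in fibroblasts, 1249 and 299 in early and 777 and 646 in late libraries. CPM is not divided by transcript length, so the shares compare libraries and not subunits. Mcm3 made up 7.51% and 7.35% of the sum in fibroblasts, 14.5% and 13.7% in early and 14.2% and 14.4% in late libraries. The share of Mcm4 was 24.5% and 26.8% in fibroblasts, 13.2% and 21.0% in early and 15.4% and 12.8% in late libraries. Mcm5 had 8.34% and 7.76% in fibroblasts, 15.4% in early replicate 1, 8.60% in early replicate 2, and 13.9% and 15.2% in late libraries. Early replicate 2 thus had the Mcm3 share of the other CRISPR activation libraries, an Mcm5 share near that of fibroblasts and an Mcm4 share between both.

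**Figure D3:**
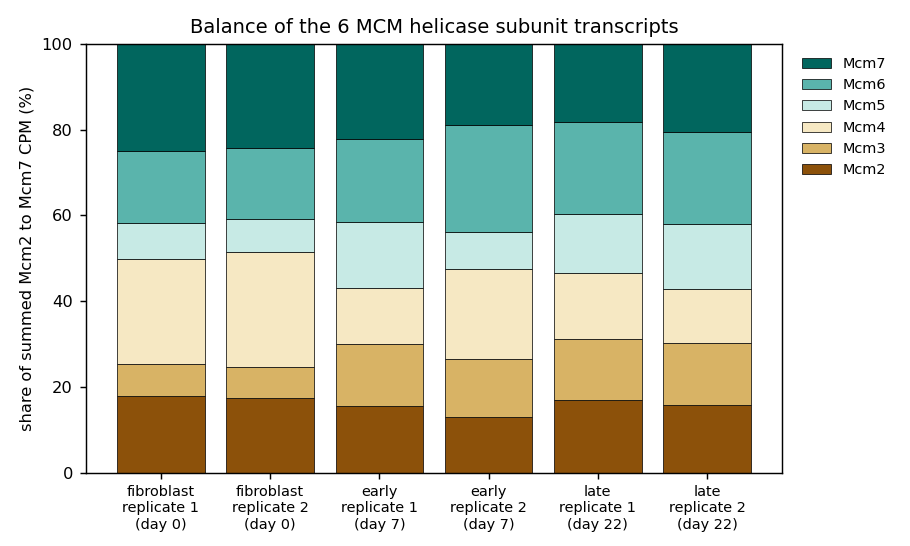
Share of each MCM subunit gene in the summed CPM of Mcm2 to Mcm7, in percent, for each library in order of day. The Mcm3 band is 7.51% and 7.35% in fibroblasts and 13.7% to 14.5% in the other 4 libraries, and the Mcm5 band of early replicate 2 (8.60%) is near the fibroblast values.

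Genes that turn the loaded ring into a helicase ranged from the largest early fold change of the 39 to one of the smallest. Mcm10, needed to activate it (ENSMUSG00000026669, chr2:4989714-5012791 in GRCm38), was at 1.07 and 1.32 CPM in fibroblasts, 38.8 and 5.68 in early and 20.6 and 18.6 in late libraries. That gave the largest early log2 fold change of the 39, 4.21 ± 0.97 (edgeR adjusted p = 0.0762), and 4.02 ± 0.96 in late cells (0.0760). Cdc45, the partner of the ring and of GINS, was at 5.27 and 4.79 CPM in fibroblasts, 34.2 and 6.77 in early and 22.8 and 18.7 in late cells (log2 fold change 2.02 ± 0.76 in early cells, adjusted p = 0.154, and 2.04 ± 0.76 in late cells, adjusted p = 0.140). The GINS complex has the 4 subunits Gins1 to Gins4, and the levels of their genes differed from each other across the libraries. Gins1 was at 2.18 and 2.26 CPM in fibroblasts, 21.9 and 6.48 in early and 11.1 and 9.27 in late libraries. Gins2 was at 10.3 and 8.32 CPM in fibroblasts, 38.7 and 9.51 in early and 26 and 21.4 in late cells, so early replicate 2 lay within the fibroblast values. For Gins3 the values were 4.53 and 4.21 CPM in fibroblasts, 10.9 and 6.10 in early and 9.17 and 7.64 in late cells. Fibroblasts and both CRISPR activation groups did not overlap for Gins1, Gins3 and, by a narrow margin, Gins4. Of all tested genes 32.3% in early and 35.7% in late cells lay above fibroblasts in this way. Gins4 was close to level, at 27.2 and 31.7 CPM in fibroblasts, 45.5 and 32.5 in early and 35.3 and 31.9 in late cells, with log2 fold changes of 0.41 ± 0.26 in early (adjusted p = 0.339) and 0.19 ± 0.26 in late cells (0.624).

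Among licensing genes, the loader Cdc6 (ENSMUSG00000017499, chr11:98907801-98923940 in GRCm38) stood out, at 1.51 and 1.44 CPM in fibroblasts, 40.5 and 5.30 in early and 27.2 and 22.7 in late libraries. Its log2 fold change was 3.95 ± 0.99 in early (edgeR adjusted p = 0.0814) and 4.07 ± 1.0 in late cells (0.0781), the largest late value of the 39, and its early libraries were 7.64-fold apart, the widest gap of all members. Cdt1, the other loader, was at 4.5 and 3.59 CPM in fibroblasts, 53.8 and 10.5 in early and 35 and 26.2 in late cells (log2 fold change 2.99 ± 0.80 in early cells, adjusted p = 0.0883, and 2.92 ± 0.80 in late cells, adjusted p = 0.0873). Gmnn encodes geminin, which blocks Cdt1 after origins have fired, and was at 6.95 and 5.41 CPM in fibroblasts, 41.1 and 8.52 in early and 25.5 and 30.0 in late cells (log2 fold change 2.0 ± 0.74 in early cells, adjusted p = 0.149, and 2.17 ± 0.75 in late cells, adjusted p = 0.123). The ratio of Cdt1 to Gmnn, in CPM and so comparable only between libraries, was 0.647 and 0.663 in fibroblasts, 1.31 and 1.23 in early and 1.37 and 0.871 in late libraries. All 4 CRISPR activation libraries had a higher ratio than both fibroblast libraries. Orc1, the origin recognition subunit known to oscillate in the cycle, was at 1.81 and 1.26 CPM in fibroblasts, 11.6 and 1.89 in early and 8.67 and 6.49 in late cells. Orc6 was at 20.9 and 18.1 CPM in fibroblasts, 42.4 and 25.2 in early and 45.5 and 27.6 in late cells (log2 fold change 0.79 ± 0.38 in early cells, adjusted p = 0.230, and 0.90 ± 0.38 in late cells, adjusted p = 0.171).

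The sliding clamp, its loader and the single-strand binding proteins had smaller differences. Pcna, the clamp (ENSMUSG00000027342, chr2:132249162-132253314 in GRCm38), was at 45.3 and 48.5 CPM in fibroblasts, 303 and 87.9 in early and 189 and 177 in late libraries (log2 fold change 2.06 ± 0.58 in early cells, edgeR adjusted p = 0.0967, and 1.97 ± 0.58 in late cells, adjusted p = 0.0978). It has processed copies in the genome, so its counts are uncertain. The clamp loader subunit gene with the largest change was Rfc4, at 3.49 and 4.09 CPM in fibroblasts, 24.9 and 8.52 in early and 17.6 and 15.9 in late cells (log2 fold change 2.14 ± 0.57 in early cells, adjusted p = 0.0881, and 2.14 ± 0.57 in late cells, adjusted p = 0.0848). Rfc3 was at 8.63 and 7.12 CPM in fibroblasts, 28.9 and 11.4 in early and 21.9 and 18.1 in late cells. Rfc5 was at 9.47 and 7.68 CPM in fibroblasts, 37.2 and 13.5 in early and 23.7 and 22 in late cells. Rfc2 was at 22.8 and 21.6 CPM in fibroblasts and 23.8 in early replicate 2, against 51.2 in early replicate 1 and 38.0 and 37.8 in late libraries. Rpa1, the large subunit of the single-strand binding protein, was at 71.0 and 57.7 CPM in fibroblasts, 194 and 76.1 in early and 174 and 154 in late cells (log2 fold change 1.07 ± 0.46 in early cells, adjusted p = 0.193, and 1.35 ± 0.46 in late cells, adjusted p = 0.123). Rpa2 was at 9.80 and 10.6 CPM in fibroblasts, 30.7 and 11.6 in early and 25.6 and 25.9 in late cells. In early replicate 2, Rfc2, Rpa1 and Rpa2 were at 1.07, 1.18 and 1.13 times the fibroblast mean.

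Of the polymerase genes, Pola1, the catalytic subunit of the polymerase that starts each strand (ENSMUSG00000006678, chrX:93304767-93632155 in GRCm38), came closest to the threshold of all 39. It was at 5.88 and 5.15 CPM in fibroblasts, 105 and 30.5 in early and 67.2 and 57.4 in late libraries, with log2 fold changes of 3.62 ± 0.63 in early (edgeR adjusted p = 0.0580) and 3.50 ± 0.63 in late cells (0.0598). Its partner Pola2 differed less, at 11.8 and 9.0 CPM in fibroblasts, 37.5 and 15.3 in early and 24.8 and 25.4 in late cells. The primase genes were as uneven: Prim1, the catalytic subunit, was at 2.45 and 3.82 CPM in fibroblasts, 46.5 and 11.9 in early and 33.2 and 25.4 in late cells (log2 fold change 3.21 ± 0.72 in early cells, adjusted p = 0.0744, and 3.22 ± 0.72 in late cells, adjusted p = 0.0714), while Prim2 was at 14.4 and 12.9 CPM in fibroblasts, 41.3 and 15.8 in early and 27.1 and 22 in late cells. Pole, of the leading strand polymerase, was at 4.94 and 3.56 CPM in fibroblasts, 70.8 and 13.8 in early and 36.6 and 32.8 in late cells. Pold1, of the lagging strand polymerase, was at 14.3 and 9.74 CPM in fibroblasts, 93.9 and 27.6 in early and 62.9 and 57.8 in late cells. For all 6 polymerase and primase genes both CRISPR activation groups lay above fibroblasts without overlap. Of all tested genes 32.3% did in early and 35.7% in late cells. Lig1, the ligase that joins Okazaki fragments (ENSMUSG00000056394, chr7:13277283-13311433 in GRCm38), was at 10.04 and 10.1 CPM in fibroblasts, 177 and 36.0 in early and 94.6 and 91.4 in late cells (log2 fold change 3.40 ± 0.76 in early cells, adjusted p = 0.0740, and 3.21 ± 0.76 in late cells, adjusted p = 0.0758). Fen1, the flap nuclease of the same step, was at 3.39 and 3.03 CPM in fibroblasts, 15.5 and 4.87 in early and 10.2 and 9.58 in late cells (log2 fold change 1.66 ± 0.63 in early cells, adjusted p = 0.155, and 1.62 ± 0.63 in late cells, adjusted p = 0.147).

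Within nucleotide supply, the subunits of ribonucleotide reductase differed. Ribonucleotide reductase, which makes deoxynucleotides, pairs the large subunit Rrm1 with a small subunit such as Rrm2. Rrm1 was at 33.6 and 35.1 CPM in fibroblasts, 276 and 104 in early and 173 and 141 in late libraries (log2 fold change 2.47 ± 0.49 in early cells, edgeR adjusted p = 0.0668, and 2.19 ± 0.49 in late cells, adjusted p = 0.0708). Rrm2 (ENSMUSG00000020649, chr12:24708241-24714146 in GRCm38) was at 52.7 and 73.7 CPM in fibroblasts, 167 in early replicate 1, 25.5 in early replicate 2, and 102 and 78.7 in late libraries. Early replicate 2 thus held less Rrm2 than either fibroblast library, at 0.404 times their mean, and early replicate 1 held more. The log2 fold change of Rrm2 was 0.61 ± 0.82 in early (adjusted p = 0.660) and 0.51 ± 0.82 in late cells (0.683), and without early replicate 1 the early value turned to -1.30 (0.211). Rrm2 over Rrm1, in CPM, was 1.57 and 2.10 in fibroblasts, 0.607 and 0.245 in early and 0.589 and 0.557 in late libraries. Tk1, the thymidine kinase of S phase, was at 5.27 and 5.03 CPM in fibroblasts, 90.4 and 17.8 in early and 39 and 43.2 in late cells (log2 fold change 3.39 ± 0.78 in early cells, adjusted p = 0.0765, and 3.0 ± 0.77 in late cells, adjusted p = 0.0817). Tyms, which makes thymidylate, was at 7.45 and 5.24 CPM in fibroblasts, 59.1 and 18.4 in early and 32.8 and 28.3 in late cells.

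The regulators of S-phase entry were mixed: by fitted values E2f1 was lower, Ccne2 higher and Ccne1 higher by less. For Ccne1 the early libraries overlapped fibroblasts. E2f1, the activating E2F factor (ENSMUSG00000027490, chr2:154559407-154569892 in GRCm38), was at 82.4 and 85.7 CPM in fibroblasts, 56.8 and 60.6 in early and 44.2 and 32.0 in late libraries. The groups did not overlap, and the early libraries were 0.938-fold apart, the only member higher in early replicate 2. Its log2 fold change was -0.52 ± 0.23 in early (edgeR adjusted p = 0.199) and -1.14 ± 0.23 in late cells (0.0646). For late cells the value passed without late replicate 1 (-1.48, 0.0473), without a filter on low counts (0.0167) and by DESeq2 (adjusted p = 0.000487). Ccne1 and Ccne2 encode E-type cyclins, which drive Cdk2 at the start of S phase. Ccne1 was at 11.3 and 16.2 CPM in fibroblasts, 28.8 and 13.3 in early and 25.6 and 17.7 in late cells (log2 fold change 0.62 ± 0.47 in early cells, adjusted p = 0.425, and 0.66 ± 0.47 in late cells, adjusted p = 0.365); its early value was -0.046 without early replicate 1. Ccne2 was at 5.44 and 6.41 CPM in fibroblasts, 30.8 and 9.04 in early and 25.9 and 20.1 in late cells (log2 fold change 1.75 ± 0.61 in early cells, adjusted p = 0.138, and 1.95 ± 0.62 in late cells, adjusted p = 0.109).

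Of the other E2F genes, 3 had early and late values above fibroblasts in every library, and E2f5 and E2f6 lay lower. E2f2, also an activator, was at 0.907 and 1.53 CPM in fibroblasts, 24.5 and 2.46 in early and 10.3 and 14.7 in late libraries. The atypical repressors E2f7 and E2f8 were also highest in early replicate 1. E2f7 was at 2.62 and 3.03 CPM in fibroblasts, 23.7 and 3.55 in early and 15.4 and 12.9 in late cells. E2f8 was at 3.56 and 1.68 CPM in fibroblasts, 33.2 and 3.98 in early and 22 and 18.3 in late cells. E2f3 was at 40.6 and 41.5 CPM in fibroblasts, 46.7 and 37.3 in early and 43.9 and 26.8 in late cells. E2f4 and E2f5 are E2F factors usually counted as repressors. E2f4 was at 43.3 and 35.3 CPM in fibroblasts, 56.7 and 41.5 in early and 49.5 and 51.3 in late cells. E2f5 was at 17.2 and 18.5 CPM in fibroblasts, 10.1 and 11.8 in early and 14.1 and 8.40 in late cells. E2f6, a repressor independent of RB, was at 73.2 and 85.2 CPM in fibroblasts, 31.9 and 31.8 in early and 36.1 and 65.3 in late cells. Among 25 genes of E2F, RB and G1/S control, 17 had fitted values above and 8 below fibroblasts in each comparison. Of all tested genes 50.2% in early and 54.1% in late cells were fitted higher. By edgeR 0 passed in either, against 1.53% and 1.42% of all tested genes. At an unadjusted p under 0.05 there were 14 in early (12 higher) and 13 in late cells (10 higher), against 15.3% and 17.2% higher. DESeq2 called 11 higher and 2 lower in early and 10 higher and 2 lower in late cells, against 12.6% and 14.7% higher. The smallest adjusted p were those of Cdk2, the kinase of E-type cyclins (14.0 and 14.0 CPM in fibroblasts, 37.2 and 34.9 in early and 38.2 and 29.1 in late cells), Fbxo5, an inhibitor of the anaphase promoting complex (1.61 and 1.88 CPM in fibroblasts, 32.5 and 7.67 in early and 21.2 and 16.9 in late cells), and Mybl2, a factor of the cell cycle (1.44 and 1.0 CPM in fibroblasts, 41.0 and 6.67 in early and 28.8 and 19.7 in late cells). Cdk2 was nearly equal in the early libraries.

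Among 7 inhibitors of cyclin-dependent kinases, which hold cells out of S phase, 2 passed the test in each comparison with fibroblasts. Of all tested genes 1.53% did in early and 1.42% in late cells. At an unadjusted p under 0.05 there were 7 of 7 in each, against 29.8% and 32.5% of all tested genes. DESeq2 called 3 higher and 4 lower in early and 4 higher and 3 lower in late cells. Of all 16688 tested genes it called 4201 and 4682 in either direction. The genes it called higher were 2105 and 2461 of these, or 12.6% and 14.7% of all tested genes. Cdkn1a, which encodes p21, fell in early cells, with 148 and 127 CPM against 622 and 609 in fibroblasts (log2 fold change -2.16 ± 0.31, edgeR adjusted p = 0.0484), and was at 183 and 112 CPM in late cells (-2.06 ± 0.31, 0.0523). Cdkn1b, which encodes p27, rose in both, with 133 and 196 CPM in early cells and 129 and 102 in late cells against 31.9 and 29.4 in fibroblasts (2.43 ± 0.28, 0.0368, and 1.92 ± 0.28, 0.0493). Cdkn2b, which encodes p15, fell in late cells to 10.9 and 3.57 CPM, against 211 and 233 in fibroblasts (-4.95 ± 0.67, 0.0485), and was at 8.37 and 15.4 CPM in early cells (-4.22 ± 0.65, 0.0526). Early and late libraries lay on the same side of fibroblasts for each of these 3 genes. The early calls were lost without fibroblast replicate 1 (0.255 for Cdkn1a, 0.244 for Cdkn1b), fibroblast replicate 2 (0.274 for both) or early replicate 1 (0.158 and 0.0782), and that of Cdkn1a also without early replicate 2 (0.108). The late calls of Cdkn1b and Cdkn2b were lost without fibroblast replicate 1 (0.290 and 0.270), fibroblast replicate 2 (0.313 and 0.289) or late replicate 2 (0.0798 and 0.0736), that of Cdkn1b also without late replicate 1 (0.0566) and that of Cdkn2b without early replicate 1 (0.0508). The early value of Cdkn2b passed without late replicate 1 (0.0336) or late replicate 2 (0.0328), and the late value of Cdkn1a without late replicate 1 (0.0346). With total counts in place of TMM the early call of Cdkn1a (0.0632) and the late call of Cdkn1b (0.0521) were lost, and the early value of Cdkn2b passed (0.0453). Cdkn2a, of the p16 and ARF proteins, was at 569 and 568 CPM in fibroblasts, 44.4 and 104 in early and 29.4 and 10.9 in late cells. Cdkn2c was at 14.2 and 8.06 CPM in fibroblasts, 74.0 and 43.7 in early and 45.1 and 42.1 in late cells. Cdkn1c, of p57, was at 7.79 and 24.5 CPM in fibroblasts, 0.624 and 0.331 in early and 93.6 and 43.7 in late cells. Cdkn2c and Cdkn2d encode further inhibitors of the same family as p15. Cdkn2d was at 12.4 and 12.3 CPM in fibroblasts, 41.6 and 27.4 in early and 26.2 and 28.2 in late cells.

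**Figure D4:**
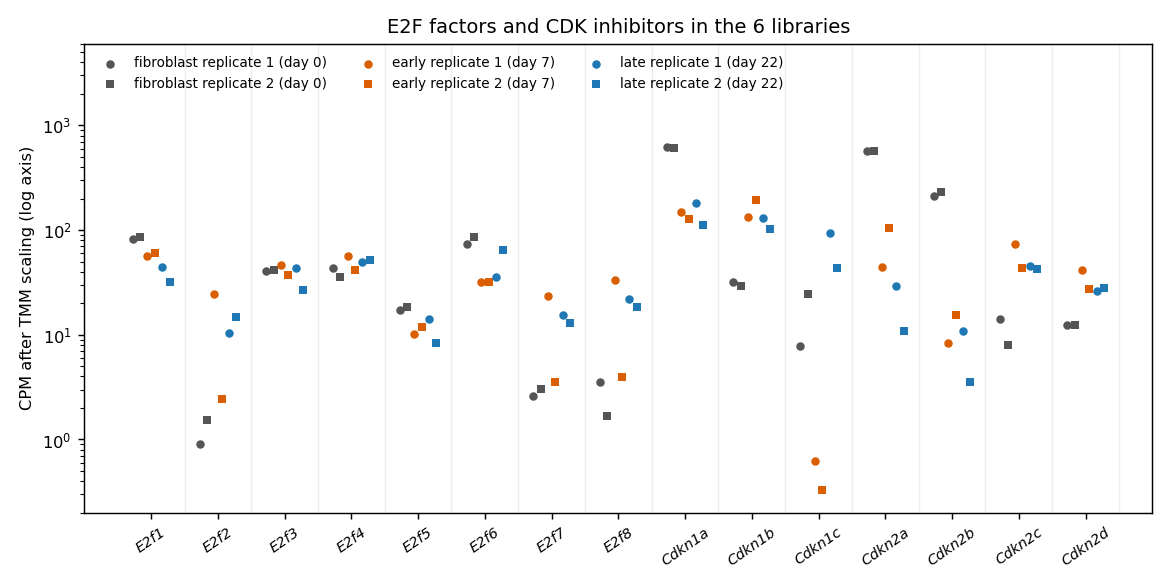
CPM of the 8 E2F genes and 7 CDK inhibitor genes in each library, on a log axis, with libraries in order of day. E2f1 lies at 82.4 and 85.7 CPM in fibroblasts and lower in the other 4 libraries, E2f2, E2f7 and E2f8 are highest in early replicate 1, and Cdkn1a, Cdkn2a and Cdkn2b are highest in fibroblasts.

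Replication genes outside the member list were read for the same complexes. Of 33 such fork and origin genes tested (of 34 listed), 30 had fitted values above fibroblasts in early cells and 29 in late cells. Of all tested genes 50.2% and 54.1% did. By edgeR 0 were called, against 1.53% and 1.42% of all tested genes. At an unadjusted p under 0.05 there were 26 (25 higher) and 24 (23 higher), against 15.3% and 17.2% higher. DESeq2 called 22 higher and 1 lower in each comparison, against 12.6% and 14.7% higher. Their median log2 fold changes were 1.80 and 1.63. The smallest adjusted p belonged to Timeless, of the fork protection complex (5.20 and 3.62 CPM in fibroblasts, 33.1 and 14.3 in early and 26.3 and 25.3 in late cells), Pole2, a subunit of the leading strand polymerase (1.18 and 0.677 CPM in fibroblasts, 21.2 and 5.54 in early and 13.6 and 13.5 in late cells), Ticrr, a firing factor (1.04 and 0.824 CPM in fibroblasts, 27.5 and 4.31 in early and 15.6 and 13.9 in late cells), and, for late cells, Wdhd1, a fork adaptor (3.56 and 2.88 CPM in fibroblasts, 47.7 and 10.3 in early and 33.1 and 26.7 in late cells). Subunits that did not follow their complex in early cells, late cells or both were picked out after their values were seen. Orc3 was at 45.2 and 49.6 CPM in fibroblasts, 31.5 and 56.2 in early and 32.1 and 33.4 in late cells. Orc4 was at 47.8 and 45.6 CPM in fibroblasts, 40.9 and 37.6 in early and 37.6 and 36.8 in late cells, unlike Orc1. Pold4, the small subunit of the lagging strand polymerase, was at 49.6 and 41.9 CPM in fibroblasts, 21.0 and 20.8 in early and 26.1 and 15.4 in late cells, opposite to Pold1. Pole3, a histone-fold subunit of the leading strand polymerase, was at 42.8 and 47.2 CPM in fibroblasts, 52.7 and 94.3 in early and 42.8 and 38.4 in late cells. Its early libraries lay above both fibroblast libraries, as those of Pole2 did, and its late libraries did not.

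Of 17 other nucleotide supply genes 16 had fitted values above fibroblasts in early and 15 in late cells, with medians of 0.93 and 0.79. By edgeR 0 were called, 6 and 5 were higher at an unadjusted p under 0.05, and DESeq2 called 5 and 4 higher. Over all tested genes 50.2% and 54.1% were fitted higher and edgeR called 1.53% and 1.42%. At that unadjusted p 15.3% and 17.2% were higher, and DESeq2 called 12.6% and 14.7% higher. The checkpoint and mitosis counts below stand against the same shares. Dtymk, the next kinase after Tk1, was at 27.6 and 22.1 CPM in fibroblasts, 76.4 and 38.3 in early and 58.9 and 55.7 in late cells. Mthfd1, of folate metabolism, was at 62.6 and 41.8 CPM in fibroblasts, 115 and 83.8 in early and 86.5 and 76.1 in late cells. Shmt1, also of folate metabolism, was at 4.10 and 6.21 CPM in fibroblasts, 57.3 and 9.46 in early and 38.5 and 34.9 in late cells. Of 19 checkpoint and fork repair genes 18 had fitted values above fibroblasts in each comparison, with medians of 2.92 and 2.87, 0 called by edgeR, 13 and 14 at an unadjusted p under 0.05, and the same numbers called higher by DESeq2. Brca2, a gene of homologous recombination, was at 1.78 and 1.97 CPM in fibroblasts, 31.9 and 7.76 in early and 16.3 and 16 in late cells. Fancd2, of the Fanconi anaemia repair pathway, was at 1.44 and 1.09 CPM in fibroblasts, 33.4 and 5.39 in early and 17.6 and 15.1 in late cells. Fanci, its partner, was at 1.07 and 1.12 CPM in fibroblasts, 29.6 and 4.59 in early and 13.0 and 13.8 in late cells. Wee1, a kinase that restrains Cdk1, was at 11.2 and 9.91 CPM in fibroblasts, 40.5 and 20.5 in early and 34.5 and 29.6 in late cells. The 20 mitosis genes, by comparison, all had fitted values above fibroblasts in both groups, with medians of 3.73 and 3.43 (0 called by edgeR, 20 in each at an unadjusted p under 0.05, 20 in each by DESeq2); their summed CPM was 152 and 113 in fibroblasts, 3164 and 540 in early and 1448 and 1509 in late libraries. The smallest adjusted p belonged to Top2a, the topoisomerase that untangles chromosomes (22.6 and 15.9 CPM in fibroblasts, 613 and 124 in early and 291 and 286 in late cells), and Plk1, a mitotic kinase (5.07 and 3.18 CPM in fibroblasts, 136 and 26.2 in early and 61.6 and 61.2 in late cells). Next came Kif11, a spindle motor, for early cells (5.34 and 4.27 CPM in fibroblasts, 138 and 24.5 in early and 57.5 and 57.0 in late cells). For late cells it was Mki67, the proliferation marker (11.8 and 9.97 CPM in fibroblasts, 432 and 61.6 in early and 180 and 203 in late cells). The summed CPM of the 39 members was 636 and 617 in fibroblasts, 3595 and 1054 in early and 2333 and 2000 in late libraries.

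Late cells were then set against early cells directly. Of 39 members 13 had a fitted value above early cells and 26 below (47.1% of all tested genes were fitted higher), with a median log2 fold change of -0.071 against -0.033 over all tested genes and standard errors of 0.23 to 0.87. By edgeR 0 members passed, and 0.0% of all tested genes did; at an unadjusted p under 0.05 there was 1 member, against 10.2% of all tested genes in either direction and 7.42% higher, and DESeq2 called 0 (4.75% of all tested genes were called higher). That member was E2f1 (-0.62 ± 0.23, adjusted p = 0.461). For 36 of the 39 both late libraries lay between a lower early replicate 2 and a higher early replicate 1, as they did for 12.5% of all tested genes; the exceptions were Gins4, Orc6 and E2f1. The direction depended on which libraries were in the fit. Without early replicate 1 late cells were higher for 38 of 39 members (median 1.08), and without early replicate 2 they were lower for 39 of 39 (median -0.76), with 0 called by edgeR in either fit. Without late replicate 1, 3 members were higher and 36 lower, and without late replicate 2, 22 were higher and 17 lower.

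The gap between the early libraries was not the same for all members. Early replicate 1 exceeded early replicate 2 for 38 of 39 genes (48.5% of all tested genes), with a median ratio of 3.40, against 0.989 over all tested genes, and the ratio ran from 0.938 for E2f1, 1.40 for Gins4 and 1.68 for Orc6 to 6.83 for Mcm10, 7.51 for Mcm5 and 7.64 for Cdc6. Across the 39 genes this ratio, on the log2 scale, went with the late over fibroblast fold change, which uses none of the same libraries (Pearson r = 0.77, Spearman rho = 0.74, and r = 0.71 without E2f1; over all 16688 tested genes r = 0.18). The genes share the 6 libraries and are not independent, so this describes them and gives no test. Rrm2 lay off the trend, with a ratio of 6.56 and a late log2 fold change of 0.51. The fibroblast markers, lower in early replicate 1 than in early replicate 2 for 7 of 8 genes, stood the opposite way round in these libraries, and their part in the gap was not tested.

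**Figure D5:**
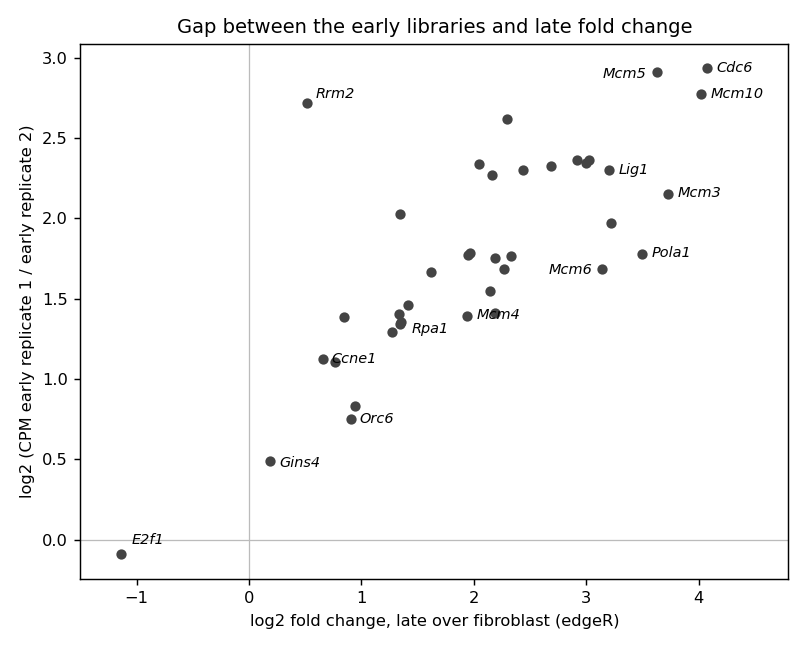
Each point is a member; the x axis is the log2 fold change of late cells over fibroblasts and the y axis the log2 ratio of early replicate 1 to early replicate 2. Genes with larger late values had larger gaps (Pearson r = 0.77 over 39 genes), with E2f1 at the lower left and Rrm2 off the trend, at a ratio of 6.56 and a late log2 fold change of 0.51.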

How the data were processed

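The authors deposited raw read counts per Ensembl gene for all 6 libraries. The submitters' processing notes name Trimmomatic 0.36, STAR 2.5.2b, featureCounts, Subread 1.5.2 and GRCm38, and poly(A) selection is per the labels' protocols. Strand setting, annotation release and multi-mapping reads were not given in any source used here, so the 13 members with an exon overlapped by a gene on the other strand (Mcm7, Cdc45, Gins2, Orc1, Orc6, Rfc2, Rfc4, Rfc5, Pole, Lig1, Fen1, Tk1 and Ccne2), and Rpa1, overlapped on its own strand, have uncertain counts.

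Fibroblast columns carry sample titles. Early and late columns were assigned by name: the abbreviation for induced progenitors as late, and the fibroblast abbreviation preceded by c as early. Were this reading wrong, the early and late values would be exchanged. No label says if the replicates are separate cultures or animals. The p-values therefore reflect the spread among these 6 libraries alone, which may be technical.

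Symbols and positions came from GENCODE M21 (GRCm38), with 49056 identifiers matched. In R 4.3.3, edgeR 4.0.16 kept 16688 genes by its default filter, scaled by TMM and fitted the 3 group means over all 6 libraries with robust quasi-likelihood (3 residual degrees of freedom, common biological coefficient of variation 48.6%). P-values were adjusted by Benjamini-Hochberg over all tested genes, with a threshold of 0.05. Standard errors were derived from the F statistic. The fit was tested on simulated data with 200 changed genes. The simulated spread was set smaller than that of these libraries. That run thus checks the code and not how often real changes are found here. A count of 3 corresponded to 0.0748 to 0.149 CPM before scaling, which limits precision at low levels. Alternatives were other scalings, no filter, DESeq2 1.42.0, a replicate block, only the groups compared, and leaving out each library. All 39 members could be named; of each pathway list the called genes, or otherwise the 3 with the smallest adjusted p, could be named, with all CDK inhibitors and E2F genes; marker genes could be named with their levels. Outside this rule, Orc3, Orc4, Pold4 and Pole3 were named after their values were seen. Members and lists were chosen with earlier results of these data known. Among the listed pathway symbols, 1 was not matched. A gene that the naming rule picked is not reported here.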

Additional observations from a re-analysis of the deposited data

Results flagged for a closer look

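Cdkn1c, which encodes the inhibitor p57 and is an imprinted gene, was lower than both fibroblast libraries in both early libraries and higher in both late libraries. It was at 0.624 and 0.331 CPM in early and 93.6 and 43.7 CPM in late cells, against 7.79 and 24.5 CPM in fibroblasts. Late over early, its log2 fold change was 7.15 ± 0.90, which did not pass edgeR's test over all genes (adjusted p = 0.254). The opposite directions relative to fibroblasts are what singled it out.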

How the results depend on the processing

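With 2 libraries per group, the direction of the members was steadier than the calls. In early and late cells against fibroblasts, 38 of 39 members stayed higher and 1 lower under each alternative except early cells without early replicate 1 (36 higher, 3 lower), where Rrm2 and Ccne1 reversed among the members followed one by one (-1.30 and -0.046, against 1.45 and 1.11 without early replicate 2). The number of members called between early cells and fibroblasts was 0 in the reported fit, 3 with total counts, 10 without a filter and 25 with DESeq2, and 0 to 23 when a library was left out (median log2 fold change 0.91 to 2.77). Between late cells and fibroblasts it was 0, and 11 without a filter, 26 with DESeq2, 22 with only the 2 groups compared, and 0 to 20 when a library was left out (median 1.95 to 2.18). Over all genes, the early count of 255 became 514 with total counts, 2337 without a filter, 4201 with DESeq2, 1469 with only the 2 groups compared, and 0 to 823 when a library was left out. The late count of 237 became 2495, 4682 and 1016 without a filter, with DESeq2 and with only the 2 groups compared, and 0 to 1058 when a library was left out. Between late and early cells 0 genes were called, 276 without a filter, 936 with DESeq2 and 0 to 602 when a library was left out; the members' median was -0.07, ran from -0.76 to 1.08 there, and was 0.11 with the replicate block. The causes were not tested. Total counts shifted the median of all genes to 0.17 in early and 0.27 in late cells.

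Libraries with the same replicate number deviated from their group means with correlations of 0.121, 0.238 and 0.0859 across genes, so the numbers were not taken as pairs. With the replicate block, 26 genes were called in early and 9 in late cells against fibroblasts, and 0 members in each comparison. The block also ended the calls of Cdkn1a and Cdkn1b in early cells (adjusted p = 0.0717 for both) and of Cdkn1b and Cdkn2b in late cells (0.0801 for both), and with it 30 members were higher and 9 lower in late than in early cells, against 13 and 26 without it. A count of 3 was 0.0748 to 0.149 CPM before scaling, which limits genes near that level.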

Other observations

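Replication-dependent histone genes, whose products package new DNA in S phase, did not go with the replication genes. Of 18 listed genes 12 were tested, and all 12 had fitted values below fibroblasts in both groups (median log2 fold change -2.22 in early and -2.36 in late cells). By edgeR 0 were called, 7 in each were lower at an unadjusted p under 0.05, and DESeq2 called 7 and 6 lower. Over all tested genes 50.2% and 54.1% were fitted higher. In either direction, edgeR called 1.53% and 1.42%, and 29.8% and 32.5% were under that unadjusted p. DESeq2 called 4201 and 4682 of the 16688 tested genes in either direction, of which 2105 and 2461 were higher. Hist1h2bc was at 27.9 and 38.1 CPM in early and 14.1 and 31.8 in late cells, against 148 and 181 CPM in fibroblasts. Hist1h1c was at 40.4 and 42.4 CPM in early and 27.4 and 47.6 in late cells, against 94.2 and 191 in fibroblasts. Hist1h1e was at 0.534 and 0.568 CPM in early and 0.709 and 0.899 in late cells, against 3.12 and 4.15 in fibroblasts, and Hist1h2be at 1.65 and 0.946 CPM in early and 0.709 and 2.92 in late cells, against 12.7 and 15.8 in fibroblasts. Hist1h2ab was at 0.312 and 0.0473 CPM in early and 0.125 and 0.0562 in late cells, against 1.28 and 1.76 in fibroblasts. Transcripts of these genes normally lack a poly(A) tail and the libraries were poly(A)-selected, and some copies are nearly identical, so these counts do not measure the full histone transcripts.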
